A study of Mus musculus with 7 samples.

Results

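The mRNAs described here encode subunits of Polycomb repressive complex PRC1. They are 10 genes, taken by symbol: Rnf2, Ring1, Bmi1, Pcgf1, Pcgf6, Cbx7, Phc1, Rybp, Kdm2b and L3mbtl2, out of 55341 annotated mouse gene symbols to which reads could be assigned. The study used RIP-seq (RNA immunoprecipitation and sequencing) on nuclei of mouse embryonic stem cells cultured with LIF. Antibody-bound protein was collected from the lysed nuclei, and RNA bound to it, directly or not, was copied by template switching and read; the protein here was Ezh2, the methyltransferase of the partner complex PRC2. The labels describe 7 libraries, of which 5 used an anti-Ezh2 antibody on wild-type cells of strain 129X(M.castaneusX129), 1 the same antibody on Ezh2-null cells of M.musculus strain, and 1 normal rabbit IgG on wild-type cells. The 5 wild-type libraries include repeat sequencing of the same material. All values come from 1 deposited table, which lists every distinct sequence and how often it was read, 34072479 reads in all. No label ties the table to any of these libraries. Its own name carries short tags that resemble a wild-type label and read filters, which the labels do not explain and which were not used to assign it to a group. It was treated as 1 pool without replicates, so that no value below is an enrichment over IgG or over Ezh2-null cells, and no difference between conditions was tested. Fewer molecules and poorer recovery of an RNA cannot be told apart in such a pool.

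PRC1 places a single ubiquitin on histone H2A at silenced genes. Every form of the complex holds a ring-finger ligase, Rnf2 (RING1B) or its paralog Ring1 (RING1A), paired with a Pcgf protein. Canonical PRC1, with Bmi1 or Pcgf2, a Cbx chromodomain protein and a Phc protein, reads the histone mark left by PRC2 and compacts chromatin. Variant PRC1 carries Rybp or its paralog Yaf2 in place of Cbx, and is brought to DNA by other factors, such as the CpG-binding Kdm2b in the Pcgf1 complex, or the Mga, Max and E2f6 group with L3mbtl2 in the Pcgf6 complex. In embryonic stem cells, Cbx7 is known as the main Cbx protein of canonical PRC1.

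The reads themselves show where these counts come from. For each gene, the 30 bases of RNA along the reads from the start position with most reads are given, since the counts rest on a small number of such places. A start position is the base at which the matched part of reads began. The reads are the reverse complement of the RNA, so they begin at the downstream end of the RNA stretch and run towards its upstream end. The sequences are GENCODE M21 transcript sequence in RNA orientation, written as DNA, and capitals mark every base of the stretch at which a read of that strand began.
Cbx7: aactgtgcttcttggggcTtgggtgagGaT
Phc1: cAgccaccagttcCgcttgaagaggaAAaA
Phc1, antisense RNA: aagcggagcaaagacccttgAgaaacGACG
Rybp: tcctaacaatcatttataattggatgtgCT
Kdm2b: gaatacCagagagaattaatgcttattGAT
L3mbtl2: gcGgggcactgaggaggcgccATcttcagA
Pcgf1: gactgagggTgtgtccacaggaggaggtcC
Pcgf6: gtgctgggattaaaggtgttggccaccacC
Bmi1: ttcagtcaaaatttgtcttttaataaaacA
Rnf2: aactcagtttgtatgagttacaacgaacaC
Ring1: aaagcttgcctctaaagtccccttcccccA

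In GRCm38 the Cbx7 stretch lies at chr15:79918269-79918298 on the minus strand, in the downstream untranslated region, and 96 reads began at its 3 capital bases. The Phc1 stretch lies at chr6:122320007-122320036 on the minus strand, in coding sequence, with 78 reads at 5 bases. The antisense stretch of Phc1 lies at chr6:122340335-122340364 and is written as plus-strand RNA, with 165 reads at 5 bases. The Rybp stretch (chr6:100231926-100231955, minus strand) is in the downstream untranslated region, with 30 reads at 2 bases. In the Kdm2b stretch the last 2 bases belong to exon 11 and the first 28 to exon 10, and 51 reads began at 4 of its bases. In the L3mbtl2 stretch the first 13 bases belong to exon 1 and the rest to exon 2, and 13 reads began at 4 bases. Of the Pcgf1 stretch (chr6:83078875-83078904, plus strand), the first 20 bases are intron in the longest coding transcript and the last 10 are exon 2. The Pcgf6 stretch (chr19:47041766-47041795, minus strand) and the Ring1 stretch (chr17:34023481-34023510, minus strand) lie wholly in retained introns. Uniqueness was judged among transcripts only, so copies of these stretches elsewhere in the genome were not searched. Pcgf6 had 14 sense reads unique to it beside 41 from all placements, so the origin of its reads is uncertain. The Bmi1 stretch (chr2:18686589-18686618, plus strand) lies at the end of its last exon. Rnf2 (chr1:151478542-151478571, minus strand) and Ring1 had 1 read at each of their positions, so their stretches are those nearest the gene's start.

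All 10 genes had sense reads, and they fell into a group of 5 with 87 to 478 sense reads and a group of 5 with 3 to 14. Cbx7, Phc1, Rybp, Kdm2b and L3mbtl2 held 96.8% of the 1222 sense reads. The ring-finger ligases Rnf2 and Ring1 and the Pcgf proteins Bmi1, Pcgf1 and Pcgf6, which form the catalytic core, had 39 sense reads together. With a minimum of 50 sense reads, 5 of 10 members passed, against 12.6% of all annotated symbols and 29.1% of 21910 nuclear protein-coding genes. The members' median level was 0.319 RPKM (sense reads per 1000000 searched reads and per kb of the gene's merged exons), while the median of all nuclear protein-coding genes was 0.0861 RPKM and that of all symbols was 0. Of those coding genes, 27.7% had no sense read.

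Among the subunits of canonical PRC1, Cbx7 (chr15:79915807-79971119, minus strand, GRCm38), the chromodomain protein that binds the PRC2 mark, had the highest level of the 10, with 478 sense reads (exact Poisson 95% interval 436 to 523) or 2.34 RPKM (2.13 to 2.56). It ranked 1565 among nuclear protein-coding genes. Phc1 (chr6:122317731-122340561, minus strand), a polyhomeotic protein whose SAM domain polymerises, followed with 235 reads and 1.41 RPKM (1.23 to 1.60). Bmi1 (chr2:18677018-18686629, plus strand), a Pcgf protein of canonical PRC1, had 6 sense reads and 0.0479 RPKM (0.0176 to 0.104). The canonical subunits thus included the highest member and a member near the bottom of the order.

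The subunits of variant PRC1 were spread in the same way. Rybp (chr6:100228565-100287485, minus strand), which stimulates the ligase, had 186 sense reads and 1.24 RPKM (1.07 to 1.44). Its interval overlapped that of Phc1, so the order of these neighbours is not resolved by counting error. Kdm2b (chr5:122870665-122989823, minus strand) had 197 sense reads and 0.575 RPKM (0.497 to 0.661). L3mbtl2 (chr15:81663889-81688315, plus strand), a protein with MBT repeats, had 87 reads and 0.464 RPKM (0.372 to 0.573), and its interval overlapped that of Kdm2b. Pcgf1 (chr6:83077869-83080855, plus strand), partner of Kdm2b, had 9 sense reads and 0.173 RPKM (0.0792 to 0.329). Pcgf6 (chr19:47033617-47050906, minus strand), partner of L3mbtl2, had 14 sense reads and 0.0883 RPKM (0.0483 to 0.148).

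The ligases were among the lowest. Rnf2 (chr1:151458004-151500955, minus strand) had 7 sense reads and 0.0538 RPKM (0.0216 to 0.111). Ring1 (chr17:34020792-34024680, minus strand) had 3 reads and 0.0293 RPKM (0.00605 to 0.0857). The intervals of the lower 5 all overlapped each other, so no order among them can be read. The intervals of the upper 5 did not overlap those of the lower 5. These intervals hold only the error of counting, and PCR copies were not distinguished from independent molecules.

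**Figure D1:**
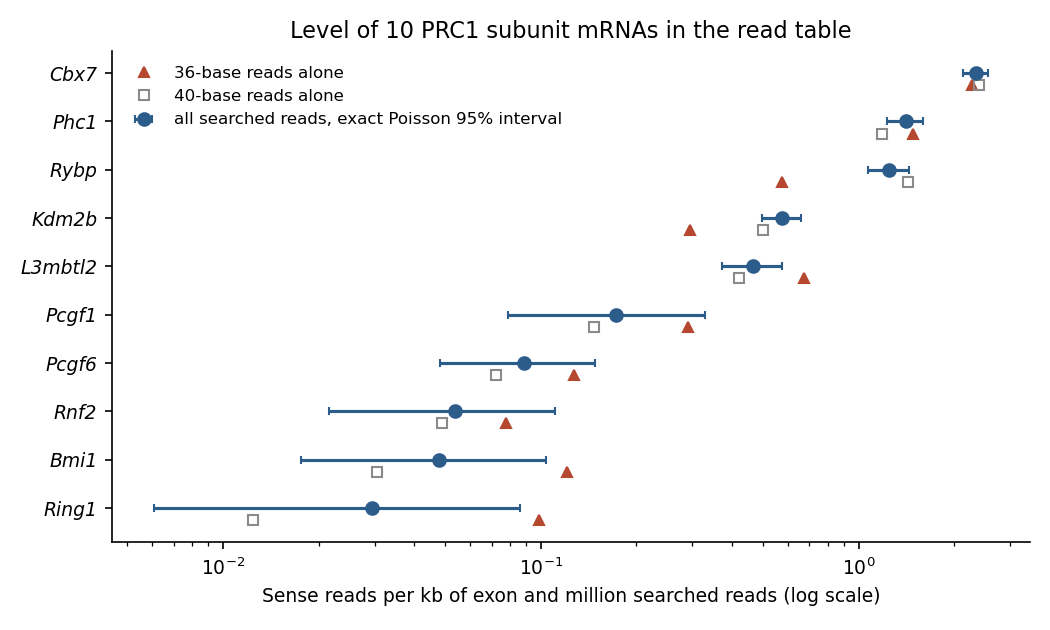
Level of each PRC1 mRNA in RPKM on a log axis, with exact Poisson 95% intervals, and the same from 36-base or 40-base reads alone. Cbx7 leads at 2.34 RPKM and Ring1 is lowest at 0.0293 RPKM, and the upper 5 intervals lie above the lower 5.

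Most reads of the pool had 36 or 40 bases, and these 2 lengths gave the same leading gene, Cbx7, but not the same order behind it. In the 36-base reads alone, 1 member, Cbx7 with 92, had at least 50 sense reads, as did 6.71% of nuclear coding genes. Cbx7 had 2.27 RPKM in 36-base reads and 2.40 RPKM in 40-base reads, each scaled to the searched reads of that length. Rybp had 0.574 RPKM in 36-base and 1.43 RPKM in 40-base reads, and in the longer reads it stood above Phc1, which had 1.48 RPKM in 36-base and 1.19 RPKM in 40-base reads. Kdm2b had 0.294 and 0.501 RPKM in 36-base and 40-base reads. L3mbtl2 ran the other way, with 0.673 RPKM in 36-base and 0.421 RPKM in 40-base reads, and so stood above Rybp and Kdm2b in the 36-base reads. There the lowest of the upper group, Kdm2b, was level with Pcgf1 at 0.291 RPKM, which rested on 3 reads. Shorter reads, of 26 to 35 bases, made up 42 of the 197 sense reads of Kdm2b and 30 of the 235 of Phc1. With at least 30 matched bases, Kdm2b had 0.460 RPKM and Phc1 1.25 RPKM.

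How much of each mRNA could be assigned also differed. Of all 34-base windows of the longest coding transcript, 57.9% were assignable to Pcgf1, where 373 windows were shared with Gm8930, and 71.6% to Bmi1, where 988 were shared with Gm5946. The shares were 86.9% for Kdm2b and 88.9% for Rybp, which shared 494 windows with Rybp-ps, and at least 99.6% for the other 6 genes. When reads that match several genes were given to each of them, sense reads came to 8 for Bmi1, 13 for Pcgf1, 41 for Pcgf6 and 317 for Kdm2b. The count stayed at 7 for Rnf2 and 3 for Ring1, all of whose windows were assignable.

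The counts were made of a limited number of places. Cbx7 was read at 56 sense start positions, Phc1 at 52, Kdm2b at 40, L3mbtl2 at 35 and Rybp at 20. When positions no more than 40 bases apart were joined, these became 20, 27, 20, 14 and 12 sites. The highest position held 14.6% of the sense reads of Cbx7, 15.7% of Phc1, 15.6% of Rybp, 16.8% of Kdm2b and 9.20% of L3mbtl2, where the median over nuclear coding genes with at least 50 sense reads was 21.6%. Single positions held several distinct read sequences. The 70 reads at the highest Cbx7 position were 15 distinct sequences, and the 37 at the highest Phc1 position were also 15. In the lower group, 8 of 9 Pcgf1 sense reads began at 1 position, and the 7 reads of Rnf2 lay at 7 positions.

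**Figure D2:**
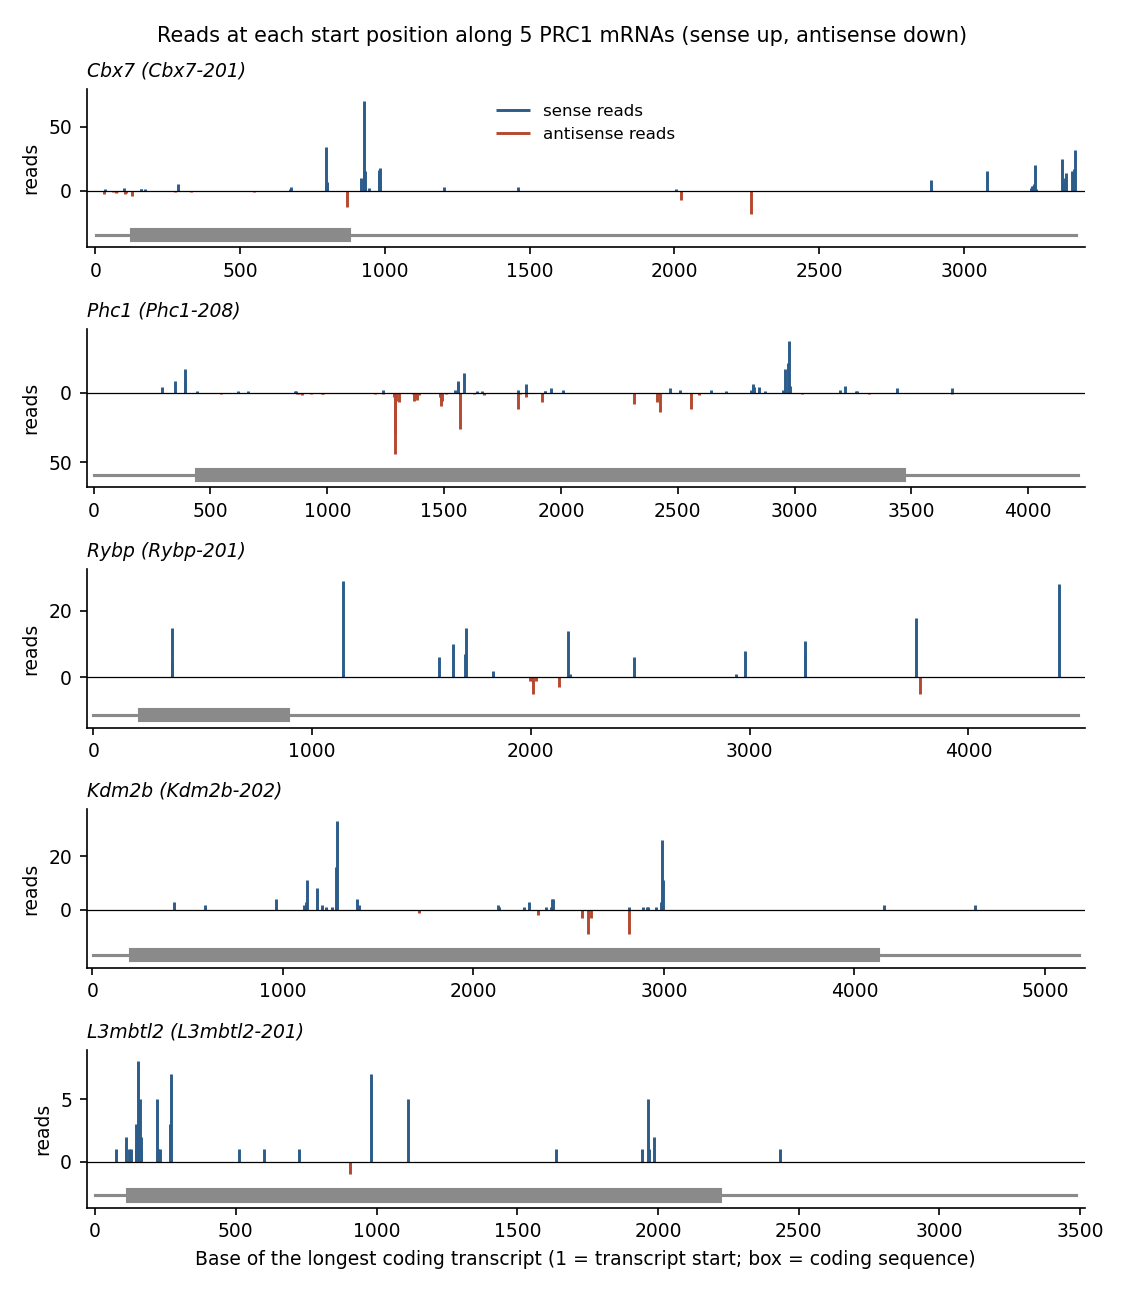
Reads at each start position along the longest coding transcript of the 5 most read PRC1 genes, with sense reads drawn upward, antisense reads downward and the coding sequence as a box. Sense reads of Cbx7 and Rybp lie mainly downstream of the box, and those of Phc1, Kdm2b and L3mbtl2 within it. Reads outside this transcript, such as the antisense reads at the Phc1 promoter, are not drawn.

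The 5 well-read mRNAs differed in which part of the transcript was recovered. In Cbx7, 372 of 478 sense reads, or 77.8% (Clopper-Pearson 95% interval 73.8 to 81.5), lay in the downstream untranslated region, and in Rybp 164 of 186 did, or 88.2% (82.6 to 92.4). That region makes up 74.1% of the longest coding transcript of Cbx7 and 80.1% of that of Rybp. The length share lay within the interval for Cbx7 and below it for Rybp. Length shares here and below count every base, also where reads could not be assigned. Only 88.9% of Rybp windows and 86.9% of Kdm2b windows were assignable, and Rybp shared 494 with Rybp-ps. Shares of assignable length by part were not computed, so the Rybp difference cannot be read as an excess of downstream reads. In Phc1, Kdm2b and L3mbtl2 the reads lay in coding sequence instead, with 77.02% (71.1 to 82.2), 80.7% (74.5 to 86.0) and 82.8% (73.2 to 90.02).

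Few uniquely assigned reads lay in the downstream untranslated sequence of those 3 mRNAs. Phc1 had 3 such reads, or 1.28% (0.264 to 3.69), where the region is 17.6% of the transcript. Kdm2b had 4, or 2.03% (0.556 to 5.12), where it is 20.3%. L3mbtl2 had 1, or 1.15% (0.0291 to 6.24), where it is 36.2%. In these 3 genes the share of length lay above the interval of the share of reads. For Kdm2b, 582 windows were shared with Gm12397, and shares of assignable length by part were not computed. Its difference therefore cannot be read as a lack of downstream reads. Over all 10 members, 41.9% of sense reads were coding (39.1 to 44.7), against 79.2% of the 5477821 sense reads of all nuclear coding genes. Cbx7 and Rybp held 97.5% of the members' downstream reads, and without these 2 genes 75.99% of the members' 558 reads were coding. The difference from all genes was smaller with each start position counted once, at 54.8% for the members and 63.9% for all.

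**Figure D3:**
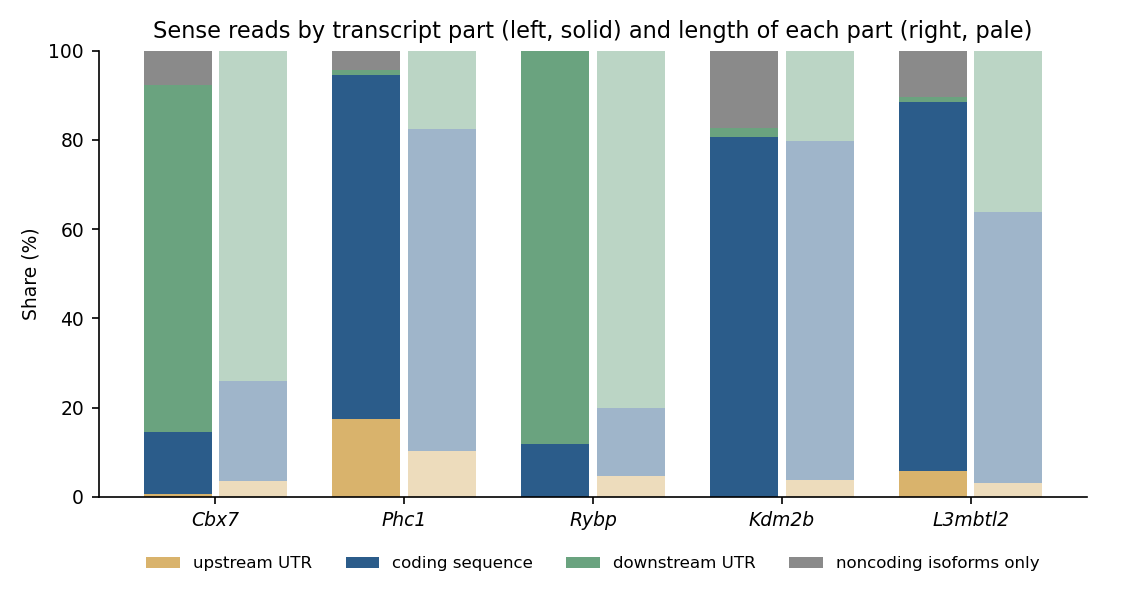
Share of sense reads in each part of the transcript (left, solid) beside the share of length of that part in the longest coding transcript (right, pale) for the 5 most read PRC1 genes. Cbx7 and Rybp have 77.8% and 88.2% of their reads in the downstream untranslated region, and the other 3 have at most 2.03% there.

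Within these parts, single exons stood out. Exon 6 of Cbx7, its last, took 89.1% of sense reads with 78.7% of the length, and 120 reads at 7 positions began within the last 100 bases of the transcript. In Rybp the last exon took 88.2% of reads with 85.7% of the length, and the remaining 22 reads all lay in exon 2, at 4 positions. Reads in sequence shared with Rybp-ps (494 windows) were not counted, and only 0.453% of assignable Rybp windows cross a junction. The lack of reads in its other exons therefore tells little. In Phc1, exon 13 (chromosome 6, 122319901 to 122320051) took 83 reads, or 35.3%, with 3.58% of the length, at 6 positions. The upstream untranslated region in exon 1 of Phc1 held another 38 reads at 4 positions. In L3mbtl2, exon 2 (chromosome 15, 81667159 to 81667396) took 47 of 87 reads, or 54.02%, with 6.83% of the length, at 16 positions. The last exon of L3mbtl2, 39.5% of its length, had 1 read.

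Kdm2b is transcribed from outer and inner start sites, and only the long form carries the demethylase domain. RefSeq promoters place 2 of its 4 listed starts at 122900367 and 122900350 on chromosome 5, inside the gene. Of the 163 sense reads within exons of the longest coding transcript, 93, or 57.1%, lay upstream of them at 15 positions, in 12 exons that make up 35.8% of its length. The other 70 lay downstream at 19 positions. Reads in sequence of noncoding isoforms are not part of these counts. Exon 19 took the most reads of any Kdm2b exon, 49, followed by exon 11 with 40 and exon 10 with 28. Of the exon 19 reads, those at the highest position, 122880585, were 24 reads of 26 to 35 bases and 2 of 36 bases, with 0 of 40 bases.

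Reads over exon-exon junctions, which come from spliced RNA, were frequent in 1 member and scarce in others. A read was counted when at least 8 bases lay on each side of the junction. In L3mbtl2, 37 of 87 sense reads at 14 positions crossed a junction, or 42.5% (32.0 to 53.6), while 8.8% of the assignable windows of its transcript do. Most of these reads and positions lay close together, from 81667167 to 81667184, over the junction of exons 1 and 2. The share thus rests mainly on 1 of its 16 junctions. In Phc1, 18 of 235 sense reads at 4 positions crossed a junction, or 7.66% (4.60 to 11.8). The 6.39% of windows that do lay within this interval. Of the 18 reads, 8 began at 122323795 and 6 at the next base, 122323796. In Kdm2b, with 22 junctions, 0 of 197 did, beside 8.07% of windows. This allows a share of up to 1.52% when 0 is taken as at most 3 reads (exact Clopper-Pearson upper limit 1.86%). Such limits, and the intervals given here, take each read as independent. The 197 reads began at 40 positions and held 64 distinct sequences, so the limits can be too low. A further 42 Kdm2b reads reached over a junction by fewer than 8 bases, among them the 33 that began at the last base of the stretch at exons 10 and 11. In Cbx7, 1 of 478 did, or 0.209% (0.0053 to 1.16), beside 2.83% of windows. Rybp had 0 of 186, which allows up to 1.61% (exact limit 1.96%), where only 0.453% of its assignable windows cross a junction, so that this count tells little. Scarce junction reads were common in this table: of 6313 nuclear coding genes with junctions and at least 50 sense reads, 40.2% had none, and the median share was 1.20% of reads beside 5.69% of windows. By value alone, without regard to intervals, the share of reads lay above that of windows in 28.6% of these genes, as in L3mbtl2 and Phc1.

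**Figure D4:**
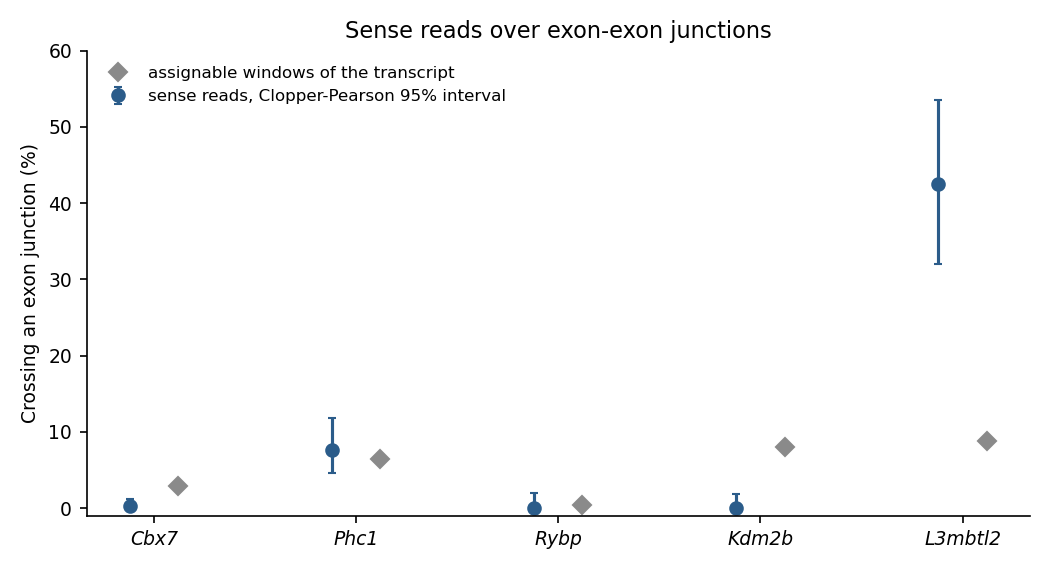
Share of sense reads that cross an exon-exon junction with at least 8 bases on each side (circles, Clopper-Pearson 95% intervals) and share of the assignable windows of the transcript that do (diamonds), for the 5 most read PRC1 genes. L3mbtl2 stands at 42.5% of reads, above its 8.8% of windows, while Kdm2b stands at 0 and Cbx7 at 0.209%, both below theirs. The intervals take each read as independent.

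Sequence found only in noncoding isoforms held 111 of the members' 1222 sense reads, or 9.08%, against 4.63% over all nuclear coding genes. Most of these reads matched annotated retained introns, with 37 in Cbx7, 33 in Kdm2b, 10 in Phc1 and 9 in L3mbtl2. In Cbx7, 25 of them began at 1 position, 79919804. All 9 sense reads of Pcgf1 were of this kind, and 8 of them ran without a gap over the edge between intron and exon 2. In Pcgf6, 11 of 14 were, with 4 at 1 position of a retained intron, and 6 of the 14 reads lay within 1 further mismatch of another gene. Introns that no annotated transcript retains were not searched, so these counts are no measure of unspliced RNA as a whole.

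Phc1 was the only member with at least 50 reads in which antisense reads outnumbered sense reads. It had 478 antisense and 235 sense reads, an antisense share of 67.04% (63.5 to 70.5). Of the 5 members with at least 50 reads, it was the 1 whose interval lay above 50%, while 15.7% of 8919 nuclear genes with at least 50 reads were so called. By distinct sequences the antisense share of Phc1 was 60.2%, and by start positions 52.7%, with 58 antisense and 52 sense positions. At that count the interval no longer lay above 50%, as it did in 2.04% of 2057 nuclear genes with at least 50 positions. The antisense reads led in both read lengths, with 189 antisense and 49 sense reads of 36 bases, and 285 antisense and 156 sense reads of 40 bases. No annotated gene overlaps the exons of Phc1 on the other strand.

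The antisense reads of Phc1 lay in 2 main regions. One is the promoter. There 223 reads of 62 distinct sequences began at 12 positions between 122340310 and 122340417 on chromosome 6, with the highest position 137 bases upstream of the RefSeq start at 122340227. At that promoter, defined as 250 bases before to 50 bases after the start, Phc1 had 2 sense reads, at 1 position. The bases are upstream untranslated sequence of longer annotated Phc1 isoforms, and the most read stretch is the antisense one printed above. The other region is the middle of the coding sequence, where exon 7 had 136 antisense and 2 sense reads, and exon 8 had 61 antisense and 49 sense reads. Exon 13, the sense peak, had 1 antisense read. Without the promoter region 255 antisense reads remained and the antisense share of Phc1 was 52.3%. No interval was computed for this share, so it is not shown to lie above 50%. Of the 478 antisense reads, 3 crossed an exon-exon junction, 1 each at 122333303, 122333313 and 122336865. With 223 of the reads at the promoter and 58 start positions in all, this count tells little. No share of windows was computed for the antisense reads. How faithfully the strand of the RNA was kept in the reads was not tested.

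**Figure D5:**
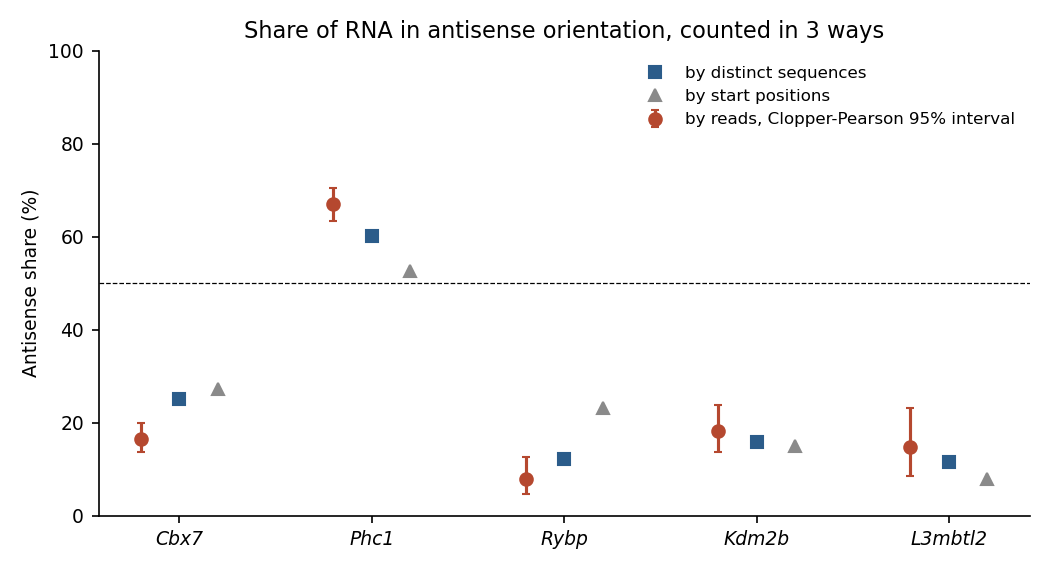
Antisense share of the 5 most read PRC1 genes by reads (circles, Clopper-Pearson 95% intervals), distinct sequences (squares) and start positions (triangles). Phc1 lies above the dashed 50% line in each count, from 67.04% to 52.7%, and the other 4 lie below it.

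The other members were read mainly in sense orientation or had too few reads to tell. The antisense share was 16.6% in Cbx7 (13.6 to 19.9), 18.3% in Kdm2b (13.6 to 23.7), 14.7% in L3mbtl2 (8.47 to 23.1) and 7.92% in Rybp (4.60 to 12.5), where that over all nuclear genes was 13.7%. Part of the antisense reads of Cbx7 lay in exon 1, with 17 reads at 8 positions, and 29 lay at 1 position of a retained intron. Without Phc1 the members' antisense share was 16.7%. On the other strand, annotated genes overlap exons of Cbx7 (Apobec3), Kdm2b (Rnf34 and A930024E05Rik), L3mbtl2 (Chadl) and Rnf2 (Trmt1l). A read matching such a gene in sense was counted for that gene and not as antisense of the member. The antisense shares of these members can therefore be too low. Ring1 had 8 antisense reads, all in exon 3 at 2 positions, and Pcgf1 had 10, of which 9 lay in exon 1. In Ring1 and Pcgf1 these outnumbered the 3 and 9 sense reads. Rnf2 and Pcgf6 had 5 antisense reads each and Bmi1 had 0, which is taken to allow up to 3 reads.

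Other PRC1 genes were described from a list of 27, of which 18 had at least 50 sense reads, with a median of 0.577 RPKM. By uniquely assigned reads, the highest were Wdr5, a scaffold shared with the trithorax complexes, with 1958 sense reads, and Mga, the DNA-binding scaffold of the Pcgf6 complex, with 1297. They were followed by the deubiquitinase Usp7 with 1169 and the histone deacetylase Hdac2 with 504. Bcor, the corepressor of the Pcgf1 complex, had 291. All 27 had at least 1 read. Among paralogs of members, Cbx2 had 2 sense reads (0.0149 RPKM), Cbx8 had 12 (0.104 RPKM), Phc2 had 6 (0.0269 RPKM) and Yaf2 had 32. Scaled to its length, Yaf2 stood at 0.542 RPKM, well above the other paralogs just named. With reads shared between genes given to each, these 4 came to at most 32. Other paralogs depended on such shared reads, which raised Pcgf2 to 838 from all placements beside 14 unique to it, Cbx6 to 1277 beside 63, Phc3 to 544 beside 93 and Pcgf3 to 319 beside 197. The same holds for the deacetylase Hdac1, which had 11295 from all placements, the most of the list, beside 128 unique to it. Antisense reads outnumbered unique sense reads in 7 of the 27 genes, which were Scml2, Phc3, Cbx6, Csnk2b, Cbx8, Pcgf2 and Cbx2. The share of all nuclear genes that met this simple rule was not computed, so the count is no trait of PRC1 genes. Some of the 7 rest on few reads, such as Cbx2 with 13 antisense beside 2 sense reads. For Pcgf2, Cbx6 and Phc3 the unique sense reads are a small part of all placements.

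The PRC1 mRNAs were set beside those of PRC2, the complex that holds Ezh2, the protein targeted in the anti-Ezh2 libraries. No label ties the reads to those libraries. Of the 10 PRC1 members, 5 had at least 50 sense reads, against 10 of 11 PRC2 genes. The median was 0.319 RPKM for PRC1 members and 4.83 RPKM for PRC2 genes. The highest PRC1 member, Cbx7 at 2.34 RPKM, was below that median, whereas Ezh2 had 12795 sense reads, Jarid2 1478, Suz12 1291 and Eed 841. The antisense share was 35.6% over the PRC1 members, or 16.7% without Phc1, and 6.89% over the PRC2 genes. It was 15.5% over the other 27 PRC1 genes. The lists were chosen with such values known, and the difference was not tested.

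Of 10 embryonic stem cell markers, 8 had at least 50 sense reads, from 187 for Dppa5a to 4569 for Tdgf1, and the other 2 were Nanog with 37 and Utf1 with 6. Nanog had 2268 reads when those shared with other genes were given to each. All 10 fibroblast markers had at least 50, with a summed level of 213.7 RPKM beside 93.6 RPKM for the stem cell markers. Without the highest gene of each list, Fn1 and Tdgf1, the sums were 105.9 RPKM for fibroblast and 38.4 RPKM for stem cell markers. The part of fibroblast RNA in the values above was not tested.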

How the data were processed

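The authors deposited 1 table without a header, with raw read counts per distinct sequence. The aligner, and the meaning of tags in the table's name that resemble read filters, are not given in the sources used here. The submitters' processing notes name mm9, while coordinates here are GENCODE M21 (GRCm38). The table was treated as 1 pool. After 6 leading bases were removed, reads of at least 26 bases (31529044) were matched to transcripts with bwa 0.7.19, with up to 2 mismatches, no gaps and up to 1000 placements. Reads placed on a single gene were counted by strand, which lowers genes with near-identical copies. If a sense read also fell on a gene overlapping on the opposite strand, it was kept. Of searched reads, 36.1% were assigned, 11.3% matched several genes and 52.6% matched no transcript. A read's part was taken at its middle base, coding sequence first. Intervals are exact (scipy 1.17.1). In a test on 20000 simulated reads, 87.7% returned to their own gene and strand. Named were all members, the 4 highest of the other PRC1 list and 4 PRC2 genes, while all other genes of the lists were named after their values were seen. Members and lists were chosen with earlier results of these data known. Alternatives changed mismatches, matched length, uniqueness, read length, read minimum, counting unit and transcript length.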

Additional observations from a re-analysis of the deposited data

How the results depend on the processing

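The number of members with at least 50 sense reads was 5 in 6 of the 8 alternatives, but 1 in 36-base reads alone, which hold fewer reads, and 2 at a minimum of 200 reads. At these settings 6.71% and 12.4% of nuclear coding genes passed. The members' median level was between 0.277 and 0.361 RPKM except where each start position was counted once (0.0899) or length was that of the longest coding transcript (0.551). Phc1 was called antisense above 50% in 7 of 8 alternatives and 0 members were with each start position counted once, where its share was 52.7%. None of these alternatives left out the reads at the Phc1 promoter, without which its share was 52.3%, with no interval computed. The coding share moved to 38.1% in 40-base reads, 54.8% with each start position counted once, 52.5% with each distinct sequence counted once, and 46.2% on the longest coding transcript alone. The cause was not tested. Of 60 single levels under 6 alternatives, 48 stayed within their Poisson interval. The levels of the upper 5 members stayed above those of the lower 5 in all 6, with a near tie in 36-base reads. In 36-base reads Kdm2b, at 0.294 RPKM, was not separated from Pcgf1, at 0.291 RPKM. Counts of 3 to 14 reads limit what can be said of the lower 5. No paired analysis was possible because the table is 1 pool with no replicates, and no replicate could be left out.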
